A study of Mus musculus with 12 samples.

Results

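The genes described here encode the major proteins of mouse milk: the 5 caseins (Csn1s1, Csn1s2a, Csn1s2b, Csn2 and Csn3) and the whey-phase genes Wap, Lalba and Glycam1. They were taken by gene symbol as 8 of the 55487 genes in the count table, and they were chosen because some of them were higher in one genotype of these tumours, so the genotype values below describe that choice and are not evidence for it. All 12 samples were bulk breast tumours from separate C57BL/6J mice that carry MMTV-PyMT, a transgene for polyoma middle T antigen whose viral promoter is active mainly in mammary epithelial cells. In 6 mice the pro-apoptotic gene Bad was wild type (Bad+/+), and the other 6 carried Bad3SA, an allele in which the serines through which BAD is inactivated by phosphorylation are replaced by alanine. The transcript count of Bad cannot check that label, because the allele changes codons and not the locus. The Bad+/+ mice were taken at 21.3 to 27.1 weeks of age (24.0 ± 1.93, SD, n = 6) and the Bad3SA mice at 22.9 to 31.1 weeks (27.5 ± 2.85, SD, n = 6).

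Caseins are phosphoproteins that pack calcium phosphate into micelles, and kappa-casein (Csn3) caps and stabilises the micelle surface. Whey acidic protein (Wap) is a rodent whey protein with protease inhibitor-like domains, alpha-lactalbumin (Lalba) turns a Golgi galactosyltransferase into lactose synthase, and Glycam1 encodes a mucin-like glycoprotein secreted in milk that is also made by high endothelial venules of lymph nodes. In the mammary gland these genes are switched on in luminal alveolar cells during pregnancy and lactation, when prolactin acts through its receptor, JAK2 and STAT5 together with glucocorticoid and the factor ELF5.

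The 5 caseins lie in one cluster on mouse chromosome 5, which spans 266.5 kb in the GRCm38 build and holds 14 annotated genes, 7 of them protein-coding. In the GENCODE M21 annotation, Csn1s1 (ENSMUSG00000070702) lies at chr5:87666208-87682578 on the plus strand and Csn2 (ENSMUSG00000063157) at chr5:87692624-87699630 on the minus strand, with 10045 bases between them. Csn1s2a (ENSMUSG00000061937, chr5:87774567-87788797, plus strand) begins 74.9 kb further on, followed by Csn1s2b (ENSMUSG00000061388, chr5:87808082-87824426, plus strand). Csn3 (ENSMUSG00000001622, chr5:87925579-87932665, plus strand) closes the cluster 101.2 kb after Csn1s2b. Wap (ENSMUSG00000000381) lies on chromosome 11 at chr11:6635482-6638637, and Lalba (ENSMUSG00000022991, chr15:98480400-98482721) and Glycam1 (ENSMUSG00000022491, chr15:103562759-103565081) lie apart on chromosome 15, all on the minus strand. No other gene matched a milk gene transcript at 90% identity or more over at least 200 bp. Csn3 overlaps an antisense gene, 1700066N21Rik, which had 1 count over all tumours; the strand setting of the counting was not given in the sources used here.

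Promoter windows of 300 bases (250 before to 50 after the RefSeq start, GRCm38.p6) were held for 6 of the 8 genes. They were searched on both strands for TTCNNNGAA, the letters to which STAT dimers bind. The match occurred in 4 of the 6 windows, those of Csn1s1, Csn1s2a, Csn2 and Glycam1, and in 8.3% of 32851 windows of the same length over all genes. The 4 stretches are shown because they cover the most variable of the caseins and Glycam1. The capitals mark the match, and each stretch reads 5′ to 3′ on the gene's own strand:
Csn1s1: tttgtaacaaTTCTTAGAAtttatgtaaa
Csn1s2a: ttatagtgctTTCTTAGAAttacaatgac
Csn2: tcacgtagacTTCTTGGAAttgaagggac
Glycam1: gccaactcatTTCCCAGAAacaccaattc
These lie at chr5:87666098-87666126 (plus strand, 100 bases before the RefSeq start), chr5:87774460-87774488 (plus strand, within the 50 bases after the RefSeq start and 97 bases before the start of the principal GENCODE transcript), chr5:87699500-87699528 (minus strand, 93 bases before the RefSeq start but inside the principal GENCODE transcript, which starts further upstream) and chr15:103565208-103565236 (minus strand, 145 bases before it). Csn1s1 and Csn1s2a carry the identical 9 letters TTCTTAGAA. A match describes these letters only and is not a measured binding site.

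The windows of Wap and Lalba held no TTCNNNGAA. With TTC and GAA set 4 bases apart in place of 3, the match was in 1 window, that of Csn2, against 6.95% of all windows, and AGAACA, a half-site letter pattern of the glucocorticoid receptor, was in 1, that of Csn1s2a, against 19.0%. The palindrome of nuclear factor 1 (TTGGC, 5 bases of any kind, GCCAA) was in none of the 6 (0.0365% of all windows), and TATAAA was in none (13.6%). The 250 bases before the RefSeq start are printed for the neighbours Csn1s1 (chr5:87665958-87666207, plus strand) and Csn2 (chr5:87699426-87699675, minus strand) and for Wap (chr11:6638650-6638899, minus strand), the 3 genes that were highest in 3 different tumours, with the STAT letters again in capitals:
Csn1s1: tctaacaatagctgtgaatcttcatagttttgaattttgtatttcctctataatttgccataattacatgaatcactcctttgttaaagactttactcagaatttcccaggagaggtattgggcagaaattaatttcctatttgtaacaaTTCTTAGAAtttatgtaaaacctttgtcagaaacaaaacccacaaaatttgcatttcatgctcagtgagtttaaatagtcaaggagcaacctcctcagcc
Csn2: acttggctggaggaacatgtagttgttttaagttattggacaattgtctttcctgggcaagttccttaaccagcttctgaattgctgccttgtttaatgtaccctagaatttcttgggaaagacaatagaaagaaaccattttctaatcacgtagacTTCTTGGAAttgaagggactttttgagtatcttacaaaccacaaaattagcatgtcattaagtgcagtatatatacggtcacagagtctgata
Wap: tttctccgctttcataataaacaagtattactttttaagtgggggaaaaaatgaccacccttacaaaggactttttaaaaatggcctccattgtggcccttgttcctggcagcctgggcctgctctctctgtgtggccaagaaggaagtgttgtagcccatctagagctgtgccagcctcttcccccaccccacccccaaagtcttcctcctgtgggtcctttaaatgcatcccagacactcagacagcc

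All 12 tumours contained milk protein transcripts, and kappa-casein made up most of them. The 8 genes together took 0.287% to 1.39% of a Bad+/+ library (median 0.722%) and 0.583% to 0.817% of a Bad3SA library (median 0.67%). Csn3 was 78.6% to 98.1% of these milk counts in Bad+/+ tumours (median 97.0%) and 55.6% to 96.1% in Bad3SA tumours (median 88.2%). The lowest share, in Bad3SA tumour 6, stood beside a Csn1s1 share of 43.1%, and in Bad3SA tumour 4 Csn1s1 held 16.9%. In Bad+/+ tumours Csn1s1 never held more than 0.962% of the milk counts. The total milk transcript level therefore overlapped fully between genotypes while its composition differed from tumour to tumour. In bulk tissue, fewer cells of a type and less RNA per cell cannot be told apart.

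Levels between genes can be compared per length of transcript, here as CPM (gene counts per 1e+06 library counts, scaled by edgeR's trimmed mean of M values) per kb of the principal transcript. The order by group median in Bad+/+ tumours was Csn3 (3963 CPM per kb), Lalba (269), Csn1s1 (24.8), Wap (10.3), Csn1s2b (1.13), Glycam1 (0.953), Csn1s2a (0.831) and Csn2 (0.103). In Bad3SA tumours Csn3 (3383) and Lalba (298) again led, followed by Csn1s1 (129), Wap (37.4), Csn2 (11.3), Csn1s2a (4.36), Csn1s2b (1.71) and Glycam1 (1.67). Csn3 was first in all 12 tumours, and Lalba was second in all but Bad3SA 4 and Bad3SA 6, where Csn1s1 was. Between neighbours in the order, the ranges over tumours of Csn3 and Lalba did not overlap in either genotype, nor did those of Wap and Csn1s2b in Bad+/+ tumours. All other neighbours overlapped in range, but the order can also be read within each tumour. In Bad+/+ tumours Lalba was above Csn1s1 in 6 of 6 and Csn1s1 above Wap in 5 of 6, while Glycam1 was above Csn1s2a in 3 of 6. In Bad3SA tumours Lalba was above Csn1s1, Csn1s1 above Wap, Wap above Csn2, Csn2 above Csn1s2a and Csn1s2a above Csn1s2b in 4 of 6 each, and Csn1s2b above Glycam1 in 2 of 6.

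**Figure D1:**
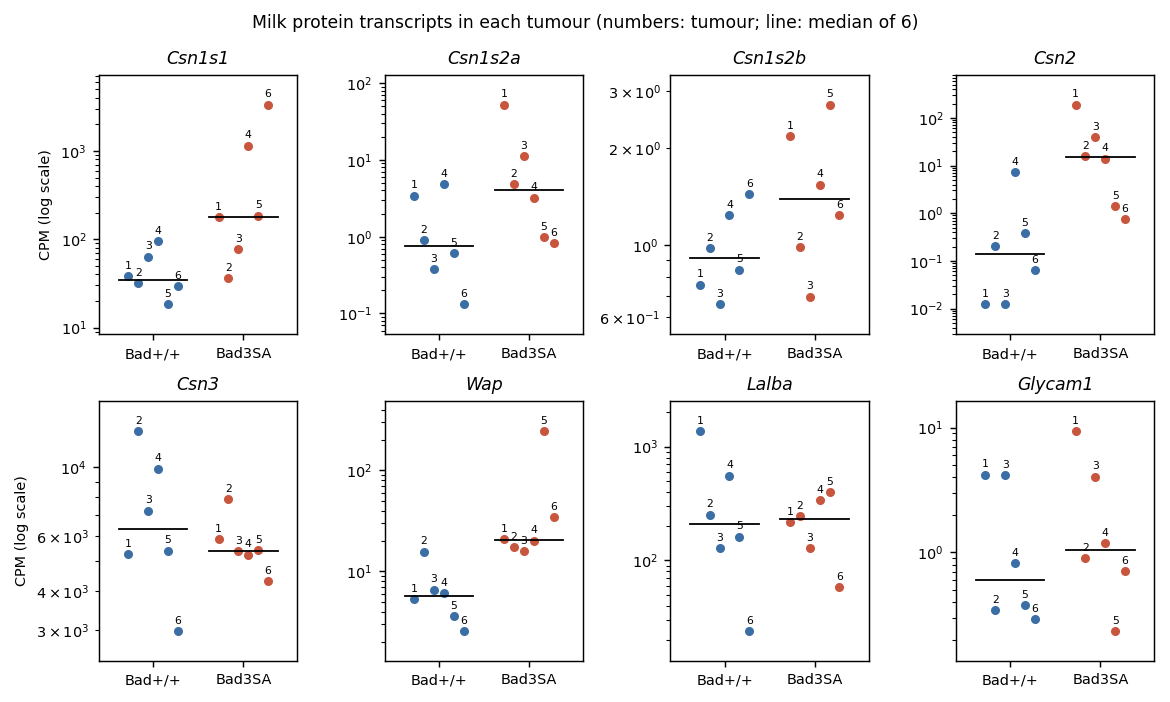
Level of each milk gene in each tumour, in CPM on a log axis, for 6 Bad+/+ (blue) and 6 Bad3SA (red) tumours, with the tumour number above each point and a line at the group median. Csn3 lies between 2984 and 13095 CPM in every tumour, while Csn2 runs from 0.0122 to 190.4 CPM; Wap is the gene whose groups do not overlap.

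Among the calcium-sensitive caseins, Csn1s1 (alpha-S1-casein) was measured at 38.1, 31.8, 63.8, 94.4, 18.3 and 29.3 CPM in Bad+/+ tumours 1 to 6 and at 177, 36.7, 76.8, 1147, 185 and 3348 CPM in Bad3SA tumours 1 to 6. Of the Bad3SA tumours, 4 lay above the highest Bad+/+ tumour, and tumours 2 and 3 lay within the Bad+/+ range. Tumour 6 alone held 67.3% of the Bad3SA sum. The log2 fold change of Bad3SA over Bad+/+ was 4.17 (SE 1.02), and the ratio of the group medians was 5.19. Without Bad3SA 6 the log2 fold change was 2.82. Without Bad3SA 4, 5 and 6, the tumours with its highest values, the log2 fold change was 1.08 (SE 0.56). Csn1s1 ranked 5261 of all genes by mean CPM in Bad+/+ tumours and 123 in Bad3SA tumours.

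Csn2 (beta-casein), the neighbour of Csn1s1, followed another order. Its levels in Bad+/+ tumours 1 to 6 were 0.0122, 0.208, 0.0122, 7.38, 0.379 and 0.0653 CPM, where the lowest value stands for 1 count in tumours 1 and 3. In Bad3SA tumours 1 to 6 they were 190.4, 15.9, 39.0, 14.0, 1.40 and 0.751 CPM. Here Bad3SA tumours 1 to 4 lay above all Bad+/+ tumours and tumours 5 and 6 did not, while the single high Bad+/+ tumour was number 4. The log2 fold change was 5.03 (SE 1.64). It was 8.34 without Bad+/+ 4, where Csn2 passed the adjusted threshold (adjusted p = 0.022, edgeR quasi-likelihood test), and 3.36 without Bad3SA 1. Bad3SA 6, which had the highest Csn1s1 of all tumours, had the lowest Csn2 of its group.

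The alpha-S2-caseins differed from each other. Csn1s2a was at 3.44, 0.912, 0.377, 4.84, 0.617 and 0.131 CPM in Bad+/+ tumours 1 to 6 and at 52.7, 4.79, 11.3, 3.23, 0.98 and 0.821 CPM in Bad3SA tumours 1 to 6. Bad3SA tumours 1 and 3 exceeded the Bad+/+ maximum and the other 4 lay within the Bad+/+ range. The log2 fold change was 2.84 (SE 1.10), and 1.26 without Bad3SA 1. Csn1s2b, transcribed at a similarly low level, ranged from 0.657 to 1.44 CPM (median 0.911) in Bad+/+ tumours and from 0.695 to 2.72 CPM (median 1.39) in Bad3SA tumours, a log2 fold change of 0.66 (SE 0.34) with overlapping groups.

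Csn3, the micelle-capping kappa-casein, was at 5248, 13095, 7253, 9896, 5399 and 2984 CPM in Bad+/+ tumours 1 to 6 and at 5867, 7906, 5388, 5244, 5412 and 4320.2 CPM in Bad3SA tumours 1 to 6. Every Bad3SA tumour lay within the Bad+/+ range, and the log2 fold change was -0.36 (SE 0.29). By mean CPM it was gene number 4 of all genes in Bad+/+ tumours and number 5 in Bad3SA tumours.

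Of the whey genes, Wap was at 5.33, 15.7, 6.61, 6.06, 3.59 and 2.58 CPM in Bad+/+ tumours 1 to 6 and at 21.0, 17.5, 15.8, 20.2, 247 and 34.8 CPM in Bad3SA tumours 1 to 6. It was the 1 milk gene of 8 whose groups did not overlap, though the gap between Bad+/+ 2 and Bad3SA 3 was only 15.7 against 15.8 CPM; over all 18019 genes tested, 0.96% had all Bad3SA tumours above all Bad+/+ tumours and 1.27% the reverse. The log2 fold change was 3.15 (SE 0.77), with 1.70 when Bad3SA 5 was left out and 1.49 (SE 0.52) with end-point age in the model. The ratio of the group medians was 3.62.

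Lalba, the lactose synthase subunit, was at 1378, 252, 128, 557, 162 and 24.0 CPM in Bad+/+ tumours 1 to 6 and at 217, 243, 128, 339, 399.8 and 58.2 CPM in Bad3SA tumours 1 to 6. The Bad3SA tumours all lay inside the Bad+/+ range, and the medians were 207 and 230.1 CPM. The log2 fold change of -0.85 (SE 0.73) rested on Bad+/+ 1, in which Lalba was 20.6% of the milk counts, and was 0.03 without it. Glycam1 ranged from 0.294 to 4.21 CPM (median 0.599) in Bad+/+ tumours and from 0.236 to 9.43 CPM (median 1.05) in Bad3SA tumours. Its log2 fold change was 0.69 (SE 0.92), and -0.27 without Bad3SA 1.

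All 8 genes passed the low-count filter that left 18019 genes. Csn2 did so through the Bad3SA tumours, each with at least 54 counts, as it had 1 count in Bad+/+ 1 and 3 and 4 counts in Bad+/+ 6. Of the 8 genes, 4 had a log2 fold change of at least 1 (Csn1s1, Csn1s2a, Csn2 and Wap), against 3.76% of the 18019 genes tested. A positive log2 fold change was seen for 6 of 8, against 50.4% of all genes, and the median was 1.77 against 0.00 over all genes. None of the 8 passed an adjusted p of 0.05 in the edgeR quasi-likelihood test across all genes (249 genes or 1.38% passed: 112 higher, 0.622%, and 137 lower, 0.76%), and the lowest adjusted p was 0.0679, for Wap. At an unadjusted p below 0.05 there were 4 of 8, against 16.2% of all genes, and with DESeq2 2 of 8 passed (Csn1s1 and Csn2), against 4.81% of the 17932 genes to which that tool gave an adjusted p. Wap received none from it. The members were chosen on this contrast, so these counts describe the choice and nothing is read from them. In the authors' deposited table, in which the sign is Bad+/+ relative to Bad3SA, Csn1s1 had a log2 fold change of -1.50 with an adjusted p of 0.0138. That table gave -1.91 for Wap with no adjusted p and -0.84 for Csn2 with an adjusted p of 0.196. No source used here states whether the deposited fold changes were shrunken towards 0, and their sizes cannot be compared with the fit. In it 952 of 23711 genes, or 4.02%, passed.

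**Figure D2:**
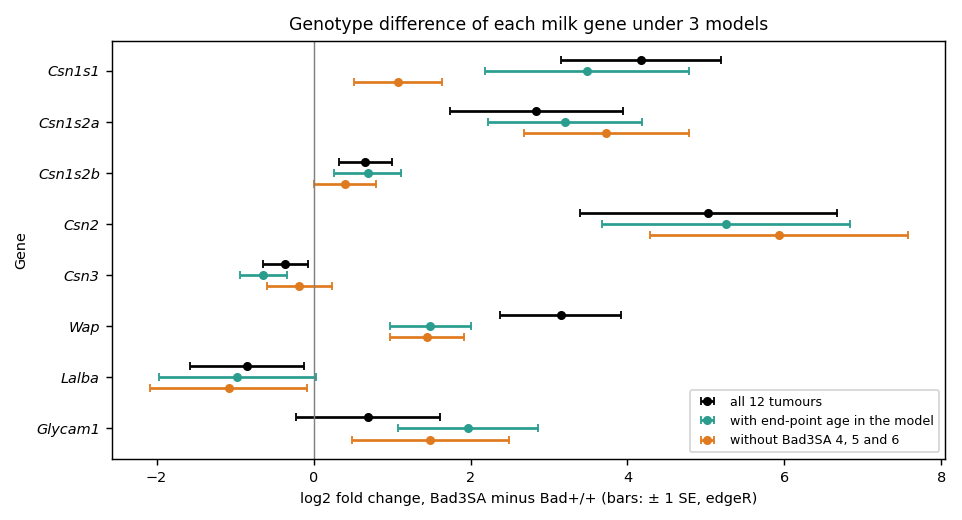
Log2 fold change of Bad3SA over Bad+/+ for each milk gene with 1 SE on either side, from edgeR with all 12 tumours (black), with end-point age in the model (green) and without Bad3SA 4, 5 and 6 (orange). Csn1s1 moves from 4.17 to 1.08 without those 3 tumours and Wap from 3.15 to 1.45, whereas Csn2 (5.03 and 5.93) and Csn1s2a (2.84 and 3.73) do not become smaller. The omission was chosen after the data were seen. Those 3 tumours include the highest Csn1s1 and Wap values and hold the lowest Csn2 and Csn1s2a values of the Bad3SA group. The directions of these changes therefore follow from the choice of tumours.

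Bad3SA tumours 4, 5 and 6 stood apart from all others on the second principal component of all genes (19.9% of the variance), at -52.8, -65.8 and -66.5, while the other 9 tumours lay between 1.55 and 43.2. Csn1s1 and Wap had their highest values in these 3 tumours, Csn1s1 in tumours 6, 4 and 5 and Wap in tumours 5 and 6. The Csn2, Csn1s2a and Glycam1 maxima were instead in Bad3SA 1, with tumour 3 next within the genotype. The part of that separation in the Csn1s1 and Wap values was not tested. Library totals ran from 58096172 to 83296370 counts, at which 3 counts equal 0.0346 to 0.0544 CPM, so the Bad+/+ Csn2 values at 1 count are at the limit of detection.

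**Figure D3:**
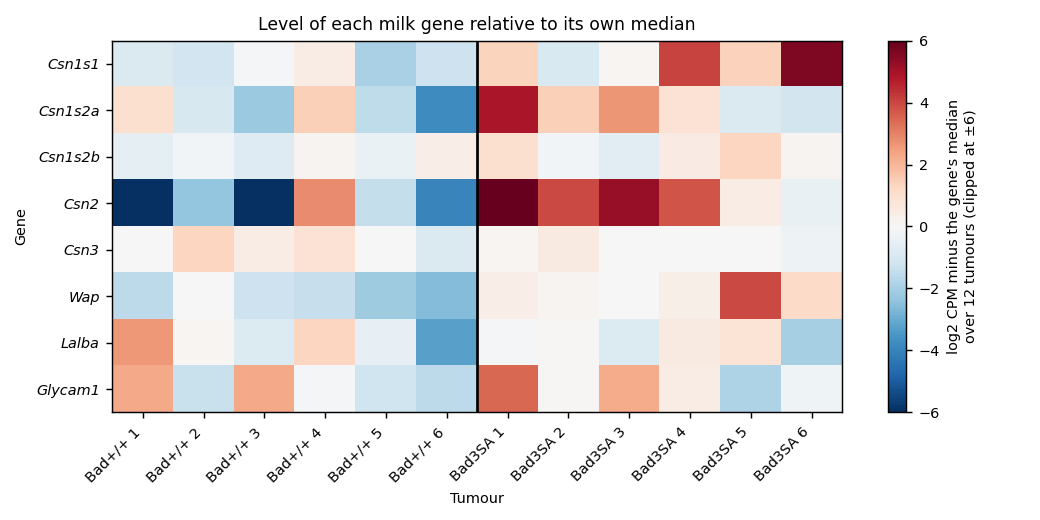
Log2 CPM of each milk gene (rows) in each tumour (columns) minus that gene's median over the 12 tumours, with red above and blue below and the scale clipped at 6. The strongest red cells of Csn1s1 fall in Bad3SA 6 and 4, of Csn2 and Csn1s2a in Bad3SA 1 and 3, and of Wap in Bad3SA 5, while the Csn3 row stays near 0.

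Several milk genes were among the most variable genes between tumours of the same genotype. The SD of log2 CPM around the genotype means was 2.90 for Csn2, larger than for 99.8% of the genes tested. It was 2.06 for Csn1s2a, 1.83 for Csn1s1, 1.79 for Glycam1, 1.58 for Lalba and 1.23 for Wap, against a median of 0.37 over all genes. Csn3 (0.57) and Csn1s2b (0.58) varied less than the other milk genes, though more than 70.1% and 71.1% of all genes. The less variable milk genes were thus the most abundant one and one of the rarest, both still above the median spread of all genes.

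How the milk genes vary with one another was examined next. Of the 28 pairs of milk genes, none passed an adjusted p of 0.05 for the correlation of log2 CPM over the 12 tumours after the genotype means were removed (100000 permutations within genotype, two-sided, Benjamini-Hochberg over the 28 pairs). The Pearson r ran from -0.41 to 0.761 with a median of 0.114, and 17 pairs were above 0. The closest pair was Csn1s2a and Csn2 (r = 0.761, permutation p = 0.00672, adjusted p = 0.188, Spearman rho = 0.734 with permutation p = 0.0134 and adjusted p = 0.231). Within Bad3SA tumours its r was 0.979 and within Bad+/+ tumours 0.493. It was 0.512 without Bad+/+ 4 and Bad3SA 1, the tumours farthest from the median Csn1s2a level. Bad+/+ 1 was the tumour that departed most, with 3.44 CPM of Csn1s2a and 1 count of Csn2. Without it r was 0.942 and the pair passed the adjusted threshold.

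Csn1s2a also had the next pairs, with Glycam1 (r = 0.678, permutation p = 0.0231, adjusted p = 0.323, rho = 0.713 with permutation p = 0.0165 and adjusted p = 0.231; r = 0.639 without Bad+/+ 4 and Bad3SA 1) and with Lalba (r = 0.579, permutation p = 0.0424, adjusted p = 0.395, rho = 0.566 with permutation p = 0.071 and adjusted p = 0.663; r = 0.649 without the same tumours). The neighbours Csn1s1 and Csn2 had r = -0.275 (permutation p = 0.438, adjusted p = 0.782, rho = -0.406 with permutation p = 0.239 and adjusted p = 0.665). Leaving out Bad3SA 4 and Bad3SA 6, the tumours farthest in Csn1s1, gave r = 0.024, and leaving out Bad3SA 6 alone gave r = 0.065. Csn1s1 and Wap had r = 0.143 (permutation p = 0.769, adjusted p = 0.898, rho = 0.42 with permutation p = 0.198 and adjusted p = 0.665; r = 0.325 without Bad3SA 4 and Bad3SA 6). Within Bad+/+ and within Bad3SA tumours, r was 0.354 and 0.935 for Csn1s2a with Glycam1 and 0.941 and 0.12 for Csn1s2a with Lalba. For Csn1s1 with Csn2 the values were 0.36 and -0.522, and for Csn1s1 with Wap 0.275 and 0.119. Each rests on 6 tumours, and whether r differs between the genotypes was not tested. A p above the threshold does not show that the genes vary independently.

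**Figure D4:**
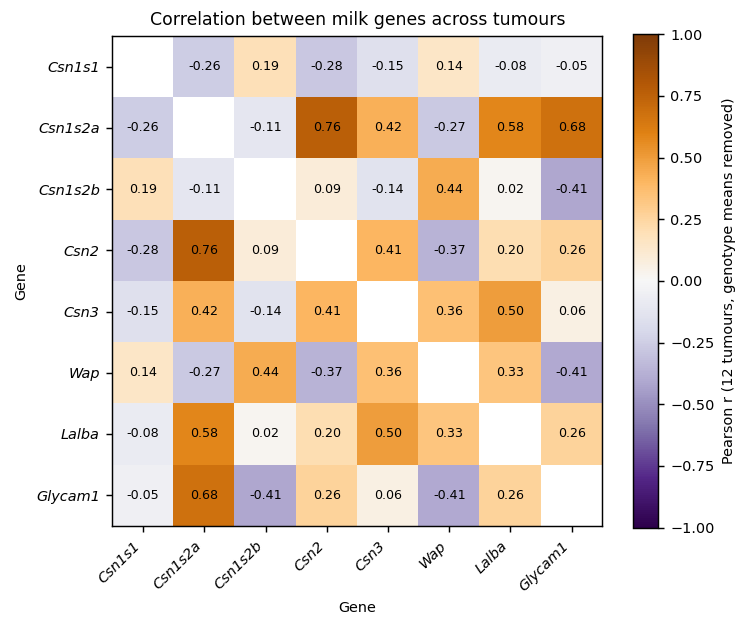
Pearson r between each pair of milk genes over the 12 tumours after removal of the genotype means (log2 CPM). The highest cells are Csn1s2a with Csn2, Glycam1 and Lalba, and the row of Csn1s1 holds values from -0.275 to 0.188.

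**Figure D5:**
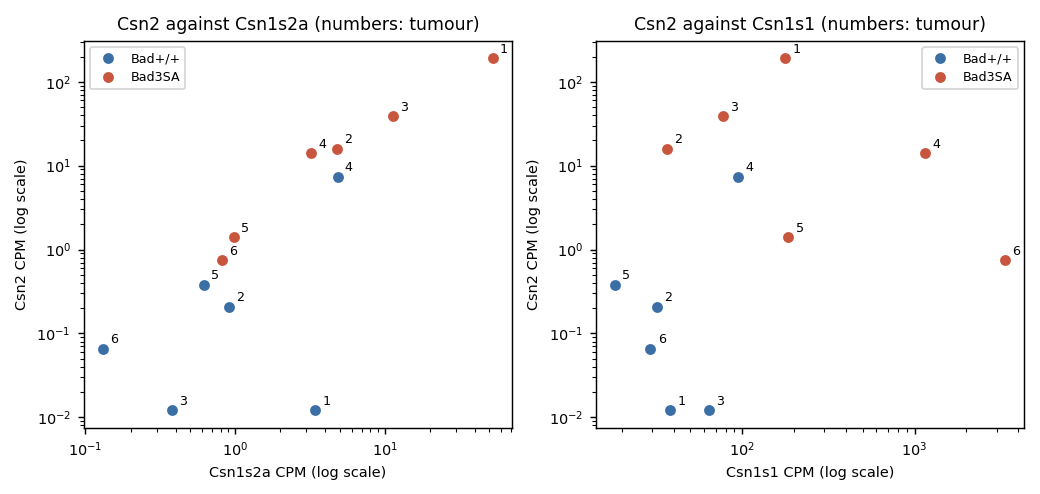
Csn2 against Csn1s2a (left) and against its neighbour Csn1s1 (right), in CPM on log axes, one point per tumour with its number, Bad+/+ in blue and Bad3SA in red. On the left the Bad3SA tumours lie close to one line (r = 0.979) and Bad+/+ 1 falls below it, and on the right Bad3SA 6 has the highest Csn1s1 and the lowest Csn2 of its genotype.

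End-point age was compared with the milk genes after removal of the genotype means, and none of the 8 passed the adjusted threshold (permutation test, two-sided, adjusted over the 8 genes). The largest r was that of Wap (r = 0.722, permutation p = 0.0218, adjusted p = 0.15, rho = 0.601 with permutation p = 0.0543 and adjusted p = 0.32), and it was 0.709 without Bad3SA 1 and Bad3SA 5, the mice farthest from the median age. The mouse with the highest Wap was also the oldest. Glycam1 had r = -0.597 (permutation p = 0.0544, adjusted p = 0.15, rho = -0.552 with permutation p = 0.0799 and adjusted p = 0.32), which became -0.21 without the same mice. Leaving out single mice, Glycam1 passed without Bad+/+ 6 (r = -0.817, permutation test, adjusted p = 0.0246) and Wap passed without Bad3SA 1 (r = 0.822, permutation test, adjusted p = 0.022), so both calls depend on 1 mouse. Csn3 had r = 0.496 (permutation p = 0.0564, adjusted p = 0.15, rho = 0.448 with permutation p = 0.135 and adjusted p = 0.359), and 0.828 without them. Csn1s1 had r = 0.001 (permutation p = 0.997, adjusted p = 0.997, rho = -0.042 with permutation p = 0.908 and adjusted p = 0.908). With age in the model the log2 fold change was 3.49 for Csn1s1, 3.20 for Csn1s2a and 5.25 for Csn2, and for Wap it was the 1.49 given above. For Glycam1 it was 1.97 (SE 0.89) with age against 0.69 without, and for Csn3 -0.64 against -0.36. The Bad3SA mice were older on average, and age and genotype can be told apart only in part.

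The signalling chain that switches these genes on in the gland was transcribed in all tumours and none of its measured genes passed the test. Of 15 tested hormone receptors, JAK2-STAT5 components and milk gene transcription factors, 0 were called higher and 0 lower, with 8 positive values and a median log2 fold change of 0.07. Prlr, the prolactin receptor, was at 130.5 ± 71.5 CPM in Bad+/+ and 98.1 ± 21.7 CPM in Bad3SA tumours (SD, n = 6 each). Stat5a was at 74.8 ± 20.7 and 81.7 ± 17.1 CPM and Stat5b between 58.9 and 107 CPM in all 12 tumours. The glucocorticoid receptor gene Nr3c1 was at 89.1 ± 15.7 and 69.8 ± 18.4 CPM, and Cish, a feedback target of STAT5, at 9.83 ± 1.79 and 11.3 ± 2.69 CPM. Elf5, the alveolar transcription factor, was at 322 ± 36.1 CPM in Bad+/+ and 407 ± 58.7 CPM in Bad3SA tumours (log2 fold change 0.34, SE 0.11, adjusted p = 0.182, edgeR). In Bad3SA tumours 5 and 6, Elf5 was at 497 and 459 CPM, the highest of all 12. Bad3SA tumours 1 to 4 had 404, 364, 355 and 364 CPM of Elf5, and the Bad+/+ maximum was 381 CPM.

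Other secretory genes were examined the same way. Of 11 further secreted milk proteins 0 were called, 8 were positive and the median log2 fold change was 0.39. The most abundant were Trf, encoding the iron carrier transferrin (9578 ± 1048 CPM in Bad+/+ and 7096 ± 1460.1 CPM in Bad3SA), and Wfdc18, a relative of Wap by its domain (1913 ± 576 and 3263 ± 1422 CPM). Of 9 genes for casein phosphorylation, calcium supply and lactose synthesis, 0 were called higher and 1 lower, against 0.622% and 0.76% of all genes. This was Atp2b2, the plasma membrane calcium pump that delivers calcium into milk, at 1.17 ± 0.79 CPM in Bad+/+ and 0.208 ± 0.0988 CPM in Bad3SA tumours (log2 fold change -2.49, SE 0.54, adjusted p = 0.0388, edgeR). Atp2b2 levels were low and the groups overlapped, at 0.208 to 2.31 CPM in Bad+/+ and 0.121 to 0.362 CPM in Bad3SA tumours. B4galt1, the galactosyltransferase that Lalba redirects, was at 223 ± 18.1 and 208 ± 44.5 CPM, and the casein kinase gene Fam20c at 25.1 ± 12.5 and 33.4 ± 20.0 CPM. All 4 milk fat globule genes had positive values (median 0.53) and 0 were called. They included Plin2, the lipid droplet coat (297 ± 30.6 and 412 ± 124 CPM), and Xdh (202 ± 55.2 and 292 ± 89.5 CPM). The summed level of the 4 was 463 to 661 CPM in Bad+/+ and 694 to 1089 CPM in Bad3SA tumours, highest in Bad3SA 1. Each of the 4 genes overlapped between the genotypes, with Plin2 at 245 to 332 and 321 to 644 CPM and Xdh at 117 to 269 and 173 to 393 CPM. How often sums of other genes separate was not computed, so nothing is read from the separate sums.

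The other genes around the casein cluster were mostly near the floor of detection. Of the 10 listed neighbours, among which are genes of the same secretory calcium-binding phosphoprotein family, 6 were tested and 0 called, with 5 positive. Amtn, which encodes an enamel protein, was the most abundant, at 14.5 ± 8.07 CPM in Bad+/+ and 71.0 ± 58.6 CPM in Bad3SA tumours (log2 fold change 2.29, SE 0.81, adjusted p = 0.199, edgeR). Prr27, which lies between Csn1s2b and Csn3, ranged from 0.0231 to 2.29 CPM in Bad+/+ and from 0.0812 to 4.27 CPM in Bad3SA tumours. Its levels in Bad3SA 4, 5 and 6 were 2.23, 4.27 and 1.70 CPM, against at most 0.136 CPM in Bad3SA 1 to 3, and the Bad+/+ maximum was in tumour 6, where Csn1s1 was 29.3 CPM. Gm42794, an antisense gene inside Prr27, was at 3.89, 0.78 and 1.92 CPM in Bad3SA 4, 5 and 6 and at most 0.256 CPM in every other tumour. Within Bad3SA, both were thus higher in the 3 tumours in which Csn1s1 was highest. As Gm42794 lies inside Prr27 and the counting strand was not given, their counts may not be separate observations. Other neighbours differed. Odam, also inside the cluster, was at 0.217, 0.585 and 0.468 CPM in Bad3SA 1 to 3 and at 0.972, 0.672 and 0.39 CPM in Bad3SA 4 to 6. The sum of the 10 neighbours was 108, 144 and 124 CPM in Bad3SA 1 to 3 against 24.4, 36.4 and 12.3 CPM in Bad3SA 4 to 6. Amtn made up most of these Bad3SA sums, so they say little about the other neighbours. Csn1s1 had 240637 counts in Bad3SA 6. In that tumour Csn2 had 54 counts, against its maximum of 14069 in Bad3SA 1. Csn3 was at 4320.2 CPM there, the lowest level of its group. Of the other annotated genes between Csn1s1 and Csn3, none had more than 3891 counts in a Bad3SA tumour, the maximum of Csn1s2a.

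Markers of cell types were set beside the milk genes. The summed level of 5 luminal epithelial markers was 4430.1 to 5658 CPM in Bad+/+ and 3809 to 5824 CPM in Bad3SA tumours, with Krt8 at 1249 ± 170.2 and 1346 ± 213 CPM, Krt18 at 1213 ± 157 and 1202 ± 194 CPM and Epcam at 1184 ± 174 and 1135 ± 233 CPM. Per 1000 CPM of these luminal markers, the ratio of group medians was 4.75 for Csn1s1, 5.41 for Csn1s2a, 109.7 for Csn2 and 3.94 for Wap, against 0.872 for Csn3 and 0.983 for Lalba, with the Csn2 ratio resting on Bad+/+ levels near the floor. The Bad3SA 6 tumour, with the highest Csn1s1, had the lowest luminal sum (3809 CPM). Of 7 basal and myoepithelial markers 0 were called, and their sum was 515 to 2015 CPM in Bad+/+ and 742 to 1542 CPM in Bad3SA tumours. It was 1346, 1542 and 1431 CPM in Bad3SA 1, 2 and 3 and 762, 742 and 832 CPM in Bad3SA 4, 5 and 6. It was highest of all in Bad+/+ 4, the Bad+/+ tumour with the most Csn2. The part of these basal markers in the Csn2 values was not tested.

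Glycam1 is also a gene of lymph node venules, so markers of these were examined. Of 8 high endothelial venule markers 5 were tested and 0 called. Ccl21a was at 0 in all 12 tumours, Chst4 was at most 0.0122 CPM, and the summed level was 10.9 to 46.9 CPM in Bad+/+ and 20.6 to 32.1 CPM in Bad3SA tumours, mostly from Gcnt1, a glycosyltransferase gene that epithelium also transcribes. The endothelial genes Selp, Ackr1 and Sele reached 5.19, 2.68 and 1.44 CPM, within the range of Glycam1 itself, and their part in the Glycam1 values was not tested. Bad3SA 1, with the highest Glycam1, had the lowest sum of its group, but a sum made mostly of Gcnt1 says little about venules in that tumour. Of 7 B cell and lymph node markers 2 were tested and 0 called, with sums of 0.474 to 3.25 and 0.58 to 1.57 CPM. All 6 adipocyte markers were positive (median log2 fold change 1.89) and 0 were called, with sums of 2.79 to 84.6 CPM in Bad+/+ and 8.78 to 325 CPM in Bad3SA tumours. The highest adipocyte sum was in Bad3SA 5, the tumour with the highest Wap, and Bad3SA 1 and 4 had 8.78 and 12.9 CPM. Its part in the Wap values was not tested.

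The genes whose pattern was most like each milk gene were taken over the 12 tumours with genotype means removed, among 12305 protein-coding genes (Pearson r of log2 CPM, as a description). Csn2 was closest to Cst6 (r = 0.972) and Trim29 (0.938), and Csn1s2a to Tuba8 (0.962) and Abhd14b (0.939). Csn1s1 was closest to Pcyt2 (0.878) and Wfdc18 (0.874), and Wap to Eaf2 (0.975) and Nudt1 (0.961). Csn3 was closest to Tmem119 (0.95) and Serpinf1 (0.945), Lalba to Hyal3 (0.961) and Pdzk1ip1 (0.929), Csn1s2b to Hax1 (0.9) and Cops7a (0.891), and Glycam1 to Gpcpd1 (0.894) and Terf2ip (0.88). No gene was named for more than 1 of the 8. Each r is among the highest of 12305 over only 12 tumours. How high such maxima run for unrelated genes was not computed, so no shared regulation is read from them.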

How the data were processed

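RNA from 12 bulk tumours was sequenced as polyA libraries. Reads were trimmed with fastp 0.23.1 and aligned with STAR 2.7.9a, build GRCm38, and DESeq2 was used, per the submitters' processing notes, which list the tools without roles. The authors deposited raw counts per gene (18019 of 55487 genes pass the low-count filter) and a comparison table. In that table the authors give the log2 fold change, its standard error, p-values, a Wald score and a mean signal per gene, per the file headers. How reads were counted, with which annotation and strand, was not given in the sources used here.

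Counts were fitted in R 4.3.3 with edgeR 4.0.16 (filterByExpr, TMM, robust quasi-likelihood F test, all 12 tumours, Benjamini-Hochberg over all genes, threshold 0.05). DESeq2 1.42.0 was an alternative. Log2 CPM used a prior count of 2. Correlations used 100000 permutations within genotype. Scripts were tested on simulated data. Positions are from GENCODE M21, promoters from RefSeq, near copies from BLAST 2.17.0. Total counts per library were 58096172 to 83296370.

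Members and gene lists were chosen with earlier results of these data known. Genes named are the 8 members, 11 regulator, secretory and luminal genes fixed by name, and from each other pathway list up to 3 genes past the threshold or, with none, the 2 of highest mean level; the cell type marker lists are given by sums, and Gm42794 and the venule genes were named after their values were seen. Odam, too, was named outside this rule. For likeness, the 2 protein-coding genes of highest Pearson r with mean log2 CPM of at least 1 are given. Alternatives were another tool, a filter of 1 CPM, other scaling and prior counts, age, the replicate block and leaving out each tumour.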

Additional observations from a re-analysis of the deposited data

Results flagged for a closer look

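Within a genotype, 6 of the 16 groups of 6 CPM values (8 genes in 2 genotypes) held a tumour whose gap to the next, divided by the range of the group, was above the 95% critical value of Dixon's test. On log2 CPM 1 of 16 did. Chance gives about 1 in 20 only for independent groups of normally distributed values. CPM values are skewed and some genes share their extreme tumour, so the 6 of 16 cannot be set against that rate. For Csn1s1 the highest Bad3SA tumour, number 6, had a gap of 0.665 of the range. For Csn1s2a the highest Bad3SA tumour, number 1, had 0.799, and for Csn2 the same tumour had 0.798. The highest Csn2 of the Bad+/+ tumours, in number 4, had 0.95. For Wap, Bad+/+ 2 had 0.694 and Bad3SA 5 had 0.918. No tumour was an extreme of this kind for Csn1s2b, Csn3, Lalba or Glycam1 on the CPM scale.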

How the results depend on the processing

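Of 284 recomputed values with an adjusted p, 273 kept their direction and side of the threshold, and 51 of 68 recomputed counts stayed within 1.5 times the reported count. None of the values with an adjusted p passed the threshold in the main run, so keeping that side does not measure stability of size. For example, the Csn1s1 log2 fold change of 4.17, and of 1.08 without Bad3SA 4, 5 and 6, counts as kept. The DESeq2 value of Wap has no adjusted p. The genotype count of 249 genes was 863 with the DESeq2 Wald test, 163 with at least 1 CPM in 6 tumours, 73 with age in the model (50 higher, 23 lower, against 112 and 137), 105 with the replicate block (63 higher, 42 lower), 151 without Bad3SA 4, 5 and 6, an alternative chosen after seeing the data, and 147 to 315 with single tumours left out. Of the 8 milk genes, DESeq2 called 2 and leaving out single tumours 0 to 1 (Csn2 without Bad+/+ 4, Csn1s1 without Bad3SA 2, where its log2 fold change was 4.42). Reversals were Lalba (0.03 without Bad+/+ 1, single omissions giving -1.10 to 0.03), Glycam1 (-0.27 without Bad3SA 1, range -0.27 to 1.19) and the r of Csn1s1 and Csn2 (0.065 without Bad3SA 6, range -0.543 to 0.065). Correlated pairs past the threshold numbered 1 with a prior count of 10 (Csn1s2a and Csn2) and 0 to 1 without single tumours, and age correlations 0 to 1 (Glycam1 without Bad+/+ 6, Wap without Bad3SA 1). The cause of these changes was not tested. Glycam1 has no value under the filter of 1 CPM, which removes it. With the replicate block, the log2 fold change was 2.60 for Csn1s1, 2.33 for Wap, 5.48 for Csn2 and -0.09 for Lalba, and no milk gene was called. The correlations of same-numbered tumours' deviations from their genotype means were -0.0793, 0.0188, -0.218, -0.271, -0.249 and 0.283. Of the Bad+/+ tumours, only number 6 correlated best with its own number. These values cannot exclude that the shared numbers pair the mice, since paired mice need not have tumours of similar expression. Depth limits Csn2 in Bad+/+ 1 and 3, where it rests on 1 count.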
